A study of Mus musculus with 6 samples.

Results

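The 82 genes described here are the protein-coding mouse genes whose symbol starts with Rpl or Rps and a number, without pseudogene names and without the Rps6k kinase genes. They were picked by symbol alone from the 21911 protein-coding symbols that GENCODE M21 holds on mm10 (GRCm38.p6). Open chromatin had been mapped by ATAC-seq, in which a transposase cuts accessible DNA, in palatal shelves of C57BL/6 embryos at E14.5. There were 3 epithelium and 3 mesenchyme libraries, each from about 20000 cells. The epithelium was peeled off after trypsin treatment with its basal and periderm layers together. The mesenchyme libraries hold the tissue that remained, largely but not purely mesenchymal cells. All embryos had the same strain and age, and no library had a mutation or a treatment. The number of embryos or shelves per replicate is given differently by different sources. The question addressed was how evenly peaks were detected, in every library and in both tissues, at a set of promoters of which most are used in all cells.

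Ribosomal proteins of the small subunit (Rps) and the large subunit (Rpl) assemble with ribosomal RNA into the cytoplasmic ribosome. Most are encoded by a single gene with introns, transcribed strongly in every growing cell from a compact promoter without a tissue-specific pattern, and many of their introns carry small nucleolar RNAs (snoRNAs), which guide modification of ribosomal RNA. Reverse-transcribed copies of their mRNAs have left many pseudogenes and a few coding paralogs. Several of the genes are mutated in Diamond-Blackfan anaemia, a human disorder of red cell production in which craniofacial defects such as cleft palate also occur.

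By the lists used here, 73 of the 82 members encode a canonical ribosomal protein at one locus each, 30 for the small and 43 for the large subunit. A further 8 are paralogs: Rpl3l, Rpl7l1, Rpl10l, Rpl22l1, Rpl36al, Rpl39l, Rps27l and Rps27rt. The last, Rps19bp1, encodes a protein that binds Rps19 and is not part of the ribosome. The symbol rule leaves out 7 genes of ribosomal components with other names, among them Rplp0, Rplp1, Rplp2, Rpsa, Fau and Rack1, which served as a comparison. The members lie on 18 autosomes and the X chromosome, with 13 on chromosome 7.

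Promoter sequence from the RefSeq table for GRCm38.p6 was matched for 62 of the 82 members. Among the 20 without an entry were Rpl7, Rps27a, Rpl23a, Rps29, Rpl30, Rpl8, Rpl3, Rpl36, Rps14, Rpl17, Rps20, Rpl21, Rpl32, Rpl18 and Rpl29. The sequences below run from 100 bases before to 29 bases after the RefSeq start, 5′ to 3′ on the strand of the gene. Rps27 and its retrogene Rps27rt come first, because they share their first transcribed bases and differ in whether a peak covers the start. Capitals in these mark the run of identical bases as far as it lies in the window.
Rps27 (chr3:90213619-90213748, minus strand): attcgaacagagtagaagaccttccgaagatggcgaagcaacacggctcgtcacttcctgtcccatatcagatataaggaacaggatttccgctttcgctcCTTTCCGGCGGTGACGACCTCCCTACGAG
Rps27rt (chr9:114982710-114982839, minus strand): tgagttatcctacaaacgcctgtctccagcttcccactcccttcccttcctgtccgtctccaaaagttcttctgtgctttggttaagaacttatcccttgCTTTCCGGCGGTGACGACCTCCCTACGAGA
The identical run is 38 bases long and begins 1 base after the Rps27 start and at the Rps27rt start itself. It was the longest run shared within the 300 bases compared, and the sequence upstream of it was not compared on its own. In the 5 other pairs of parent and paralog with entries for both genes, at most 8 bases in a row were shared. The next sequences are the member with the fewest peaks (Rpl39l), the narrowest canonical member (Rps4x), the member with the widest peaks (Rpl10a), and 2 members (Rps28 and Rps21) with motifs described further on. Their capitals mark matches, on either strand, to the ETS core, the GC box or TCGCGA, whose letters are given with the motif counts at the end.
Rpl39l (chr16:10170128-10170257, plus strand): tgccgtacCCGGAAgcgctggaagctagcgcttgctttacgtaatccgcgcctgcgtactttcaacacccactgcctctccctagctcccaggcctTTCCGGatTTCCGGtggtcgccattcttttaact
Rps4x (chrX:102189362-102189491, minus strand): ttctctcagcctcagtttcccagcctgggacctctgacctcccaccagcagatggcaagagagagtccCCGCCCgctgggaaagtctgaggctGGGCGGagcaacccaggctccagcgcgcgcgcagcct
Rpl10a (chr17:28328465-28328594, plus strand): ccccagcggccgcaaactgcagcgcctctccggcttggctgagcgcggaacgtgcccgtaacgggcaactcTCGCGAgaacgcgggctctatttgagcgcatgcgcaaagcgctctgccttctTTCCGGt
Rps28 (chr17:33824533-33824662, minus strand): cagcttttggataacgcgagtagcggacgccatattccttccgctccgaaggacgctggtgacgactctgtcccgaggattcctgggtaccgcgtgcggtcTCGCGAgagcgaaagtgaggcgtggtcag
Rps21 (chr2:180257279-180257408, plus strand): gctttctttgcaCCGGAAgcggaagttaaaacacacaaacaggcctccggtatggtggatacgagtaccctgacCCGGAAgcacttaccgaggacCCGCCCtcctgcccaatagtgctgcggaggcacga

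Nearly every member had a peak within 1 kb of its start in every library. Epithelium libraries 1, 2 and 3 had a peak at 80, 81 and 80 of the 82 members, and mesenchyme libraries 1, 2 and 3 at 82, 81 and 82. On average 80.3 ± 0.577 members were detected per epithelium library and 81.7 ± 0.577 per mesenchyme library (SD, n = 3 each), and the ranges met at 81. In all 6 libraries at once, 80 of 82 members (97.6%) had a peak, beside 69.6% of all 21911 protein-coding starts. A peak over the start base itself was present in all 6 libraries at 77 of 82 members (93.9%), beside 59.6% of all starts. No member lacked a peak in every library, whereas 15.5% of all starts did. No member had a peak in all 3 libraries of one tissue and in none of the other. Over all starts that pattern was found at 0.301% for epithelium and at 0.251% for mesenchyme.

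All 73 canonical genes, 30 of the small and 43 of the large subunit, had a peak in each of the 6 libraries. The 8 paralogs were the exception, with 6, 7 and 6 detected in epithelium and 8, 7 and 8 in mesenchyme. Rps19bp1 was detected throughout. The 7 ribosomal component genes outside the symbol rule were detected in every library, and so were the 17 other translation genes with a 5′ TOP, the pyrimidine tract at the start of growth-regulated mRNAs, and the 78 mitochondrial ribosomal protein genes.

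Genes not expected to be used in palate, and pseudogenes, gave the contrasting level in the same libraries. Of 1134 olfactory receptor genes, which are used in olfactory neurons, between 3.88% and 6.97% had a peak within 1 kb of the start. Of 283 ribosomal protein pseudogenes, 24.4%, 34.3% and 25.4% had one in epithelium libraries 1, 2 and 3, and 29.7%, 33.6% and 33.6% in mesenchyme libraries 1, 2 and 3. In all 6 libraries 8.48% of the pseudogenes had a peak, and 1.77% had one over the annotated first base. Between 47.2% and 64.2% of the pseudogenes with a peak had it over the copied gene body, and between 1.03% and 2.38% over the start of a coding gene. Reads were aligned by Bowtie2 with its default settings, which give a read that aligns equally well to a gene and its copies to one of these places at random, so pseudogene and paralog values are uncertain.

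**Figure D1:**
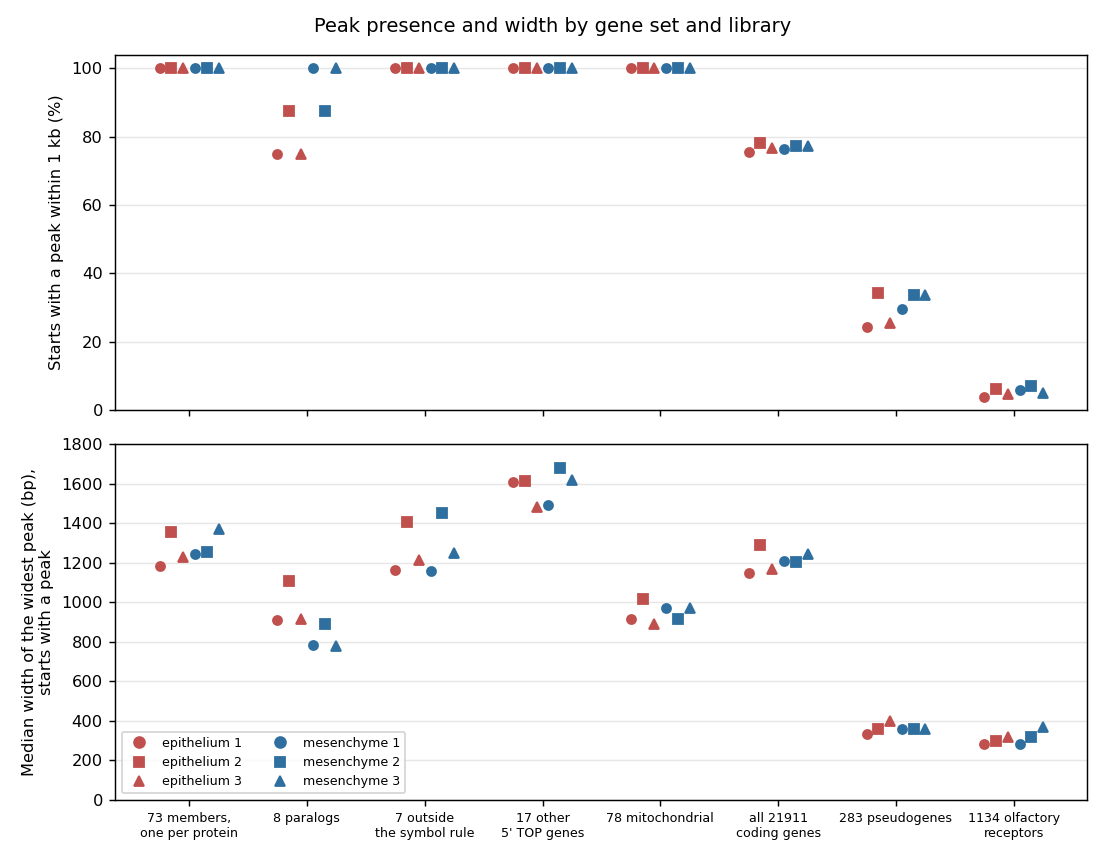
Each symbol is 1 library. The upper panel gives the percentage of starts with a peak within 1 kb, and the lower panel the median width in bp of the widest such peak among starts with a peak. Canonical ribosomal protein genes reach 100% in all 6 libraries, the paralogs 75% to 100%, pseudogenes 24.4% to 34.3% and olfactory receptors 3.88% to 6.97%.

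Of the paralogs, 2 lacked a peak in some library. Rpl39l, the paralog of Rpl39 that is used mainly in the testis, lies at chr16:10170226-10174911. It had no peak in the 3 epithelium libraries or in mesenchyme 2, and its widest peak measured 363 bp in mesenchyme 1 and 204 bp in mesenchyme 3. In mesenchyme 1 a second peak of 206 bp reached over the start base, and the peak of mesenchyme 3 ended 452 bp upstream of it. Rpl39 itself, on the X chromosome, had widths of 1318, 1386 and 1310 bp in epithelium and 953, 673 and 1163 bp in mesenchyme, and a peak over the start in all 6 libraries. At Rps27rt, at chr9:114982366-114982739, no peak was listed in epithelium 1 or 3, the widest measured 451 bp in epithelium 2, and 278, 231 and 199 bp in mesenchyme 1, 2 and 3. The start base was inside a peak in 0 of 6 libraries. Epithelium 2 had a peak from 158 to 608 bp downstream, which overlapped that of mesenchyme 1 from 357 to 634 bp downstream, and a second from 593 to 289 bp upstream, which overlapped that of mesenchyme 3 from 459 to 261 bp upstream. The peak of mesenchyme 2, from 1065 to 835 bp upstream, overlapped none of these. The 38 bases shared with Rps27 were thus under a peak at Rps27 in all 6 libraries and under none at Rps27rt.

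The other 6 paralogs were detected in every library. Rpl10l, the retrogene of the X-linked Rpl10 that takes its place in male meiosis, had 362, 721 and 624 bp in epithelium and 236, 423 and 510 bp in mesenchyme. Its widest peak lay mostly over the intronless gene and covered the start base in 2 libraries only, epithelium 2 and 3. Rpl3l, the striated muscle paralog of Rpl3, had 823, 1108 and 554 bp in epithelium and 801, 1136 and 667 bp in mesenchyme, with the start base covered in 5 libraries. The tissues overlapped at both genes. Rpl36al, Rps27l, Rpl7l1 and Rpl22l1 had medians over the 6 libraries of 1489, 1076.5, 1034.5 and 916 bp, within the range of canonical members, and a peak over the start in all 6. The Rpl36al peak also took in the start of Mgat2, on the opposite strand, in all 6. Among canonical members only Rpl35, of the large subunit, missed the start base. It did so by 17 bp in epithelium 1 and 2 bp in mesenchyme 3, with peaks of 1150 and 1133 bp just downstream. The RefSeq start of Rpl35 lies 493 bp downstream of the GENCODE start used here, inside both of these peaks.

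**Figure D2:**
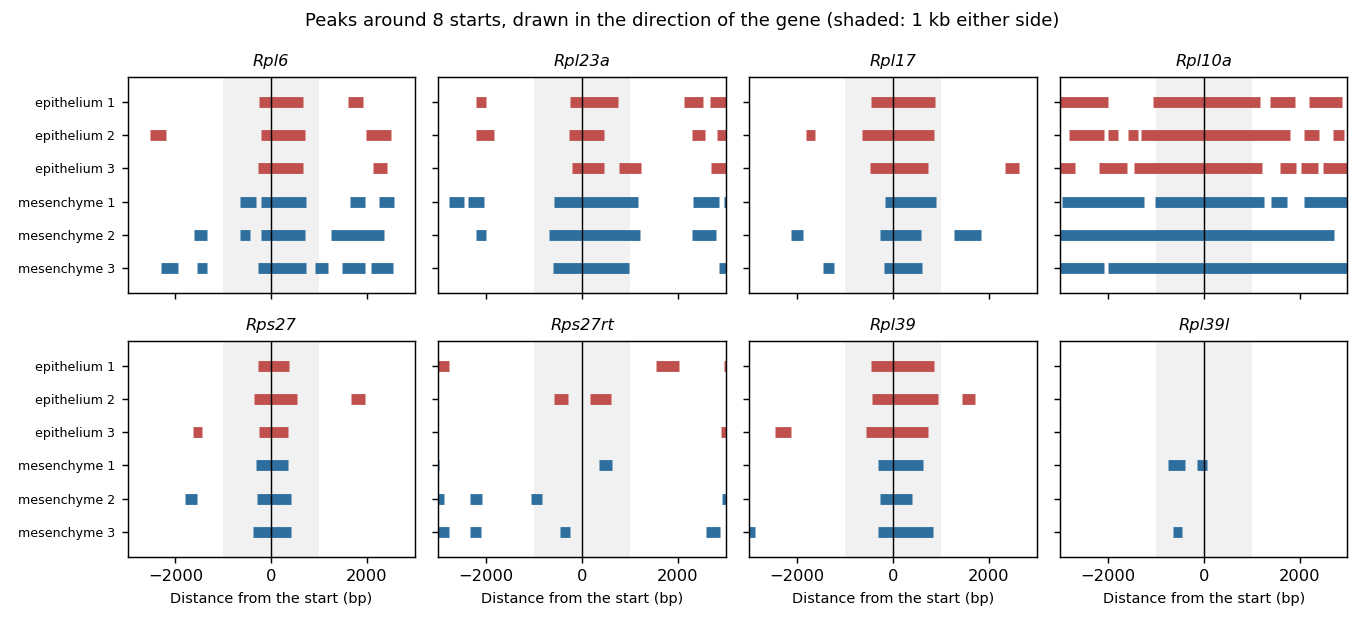
Each bar is a peak within 3 kb of the start (vertical line) of 8 members, drawn in the direction of transcription by distance in bp, with 1 row per library, epithelium in red and mesenchyme in blue. Rpl6 has a peak of nearly the same extent over the start in all 6 libraries and Rps27 one of 605 to 902 bp, Rpl23a is wider in mesenchyme and Rpl17 in epithelium, Rpl10a runs far beyond the window in mesenchyme 2 and 3, and Rps27rt and Rpl39l have only scattered peaks.

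The lists carry positions only, so the width of the widest peak reaching into the window, in bp, was the graded measure. The median over members with a peak was 1151.5, 1306 and 1195 bp in epithelium 1, 2 and 3 and 1222.5, 1191 and 1326 bp in mesenchyme 1, 2 and 3. The tissue means were 1217.5 ± 79.7 and 1246.5 ± 70.6 bp (SD, n = 3 each), and they differed by less than the spread between libraries. With members lacking a peak counted as 0 bp, the difference of the means, epithelium minus mesenchyme, was -29.3 bp, and it turned to 4.42 bp without epithelium 1 and to 13 bp without mesenchyme 3. The same medians over all starts with a peak were 1150, 1290 and 1168 bp in epithelium and 1208, 1205 and 1247 bp in mesenchyme. Mitochondrial ribosomal protein genes were narrower, between 890 and 1018 bp, and the 17 other 5′ TOP genes wider, between 1481 and 1681 bp, and neither range reached that of the members. Pseudogene peaks had medians of 334 to 399 bp. Between 94.1% and 95.2% of the peaks in a list were narrower than the members' median in that library.

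The widths of members spanned a smaller range than those of all starts, which is given as a description without a test. Over the 80 members with a peak in all 6 libraries, the median of the 6 widths had a 10th percentile of 912.9 bp, a median of 1282.25 bp and a 90th percentile of 2003.2 bp. Over the 15242 such starts of all genes these were 672.5, 1293 and 2417 bp. The SD of the log2 width was 0.476 for members and 0.751 for all. Between the lower and the upper quartile of all starts, 923.5 and 1785 bp, lay 61 of the 80 members, with 9 below and 10 above. Small and large subunit genes had closely similar medians, 1288.5 and 1294.5 bp over the canonical members. The 28 canonical members that host a snoRNA had a median of 1264 bp and the 45 without one 1294.5 bp.

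Peaks at member starts reached further into the gene than upstream. In the 70 members whose widest peak covered the start in all 6 libraries, the median reach was between 437 and 516.5 bp upstream and between 680.5 and 767.5 bp downstream. The downstream side was the longer in 74.3% to 81.4% of them per library, beside 70.8% to 72.2% of all starts of the same kind. Counted over all 82 members, the base 500 bp upstream was inside a peak in 37.8% to 57.3% of members and the base 500 bp downstream in 73.2% to 86.6%. At 2000 bp upstream and downstream the shares had dropped to between 11.0% and 28.0% and between 15.9% and 24.4%.

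**Figure D3:**
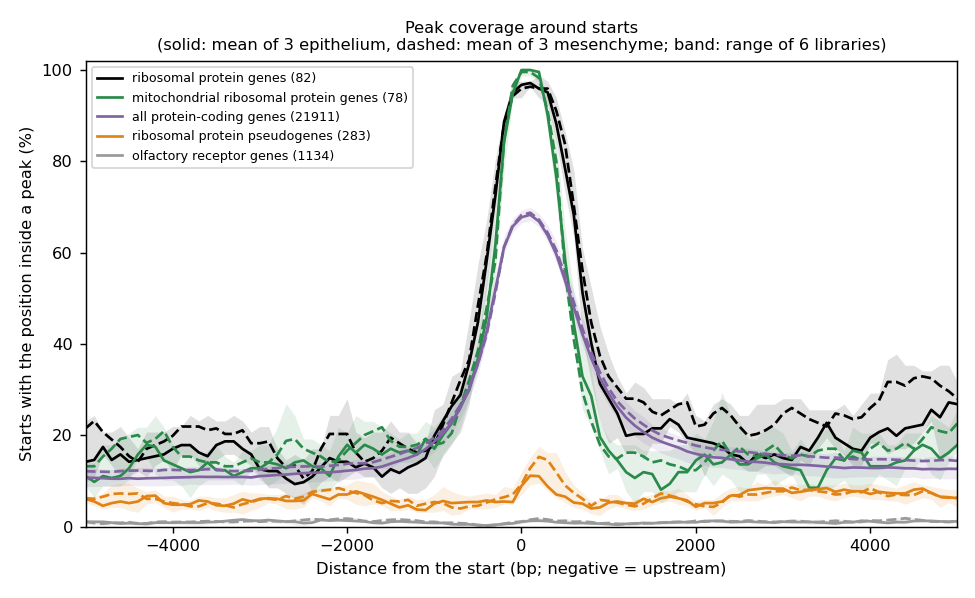
The percentage of starts whose position at a given distance (bp, negative is upstream) lies inside a peak, for 5 gene sets. Lines are the mean of 3 epithelium (solid) or 3 mesenchyme (dashed) libraries and bands the range of all 6. Ribosomal protein genes reach 93.9% to 97.6% at the start base, mitochondrial ribosomal protein genes 98.7% to 100%, all protein-coding genes 66.5% to 69.3%, and the solid and dashed lines run close together at the start.

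At the wide end stood Rpl10a, Rps15, Rpl41, Rpl7 and Rpl36, all canonical members. Rpl10a, a large subunit protein on chromosome 17, had widths of 2249, 3114 and 2673 bp in epithelium and 2268, 5763 and 10745 bp in mesenchyme. The mesenchyme 2 peak also overlapped the gene Fance and that of mesenchyme 3 Fance and Tead3, so these widths were not of the Rpl10a promoter alone. Rps15, of the small subunit, had 2083, 1254 and 3372 bp in epithelium and 2662, 3200 and 2645 bp in mesenchyme, and the peaks over 2500 bp covered the entire short gene. Rpl41, which encodes a very short large subunit peptide, had 1472, 2666 and 3561 bp in epithelium and 1533, 2423 and 3861 bp in mesenchyme. In epithelium 2 and 3 and mesenchyme 2 and 3 this peak covered the starts of both Rpl41 and Zc3h10. In epithelium 1 the widest peak covered the Zc3h10 start and not that of Rpl41, which lay under a separate peak of 970 bp. Rpl7 was steadier, with 2471, 2547 and 2535 bp in epithelium and 2539, 3042 and 2569 bp in mesenchyme, and its peak took in the start of Rdh10 in all 6. Rpl36 had 3158, 1556 and 1273 bp in epithelium and 4053, 1418 and 5927 bp in mesenchyme, and in epithelium 2 and 3 and mesenchyme 2 its widest peak lay wholly upstream, with a separate peak over the start. The tissues overlapped at each of these 5 genes.

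At the narrow end, below the paralogs Rpl39l, Rps27rt and Rpl10l, came Rps4x and Rpl4. Rps4x, the X-linked small subunit gene, had 508, 695 and 417 bp in epithelium and 476, 480 and 598 bp in mesenchyme, with a single peak over the start in every library. Rpl4, of the large subunit, had 491, 590 and 617 bp in epithelium and 1266, 705 and 683 bp in mesenchyme. There the measure did not follow the Rpl4 start in 5 libraries, where the widest peak ended between 263 and 359 bp upstream, on the side of the neighbouring Zwilch start, and a second peak lay over the start. In mesenchyme 1 a single peak spanned both. Rps4x was thus the narrowest canonical member, with a similar width in both tissues.

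The members also differed in how steady their width was from library to library. Rpl6, of the large subunit, had 927, 933 and 925 bp in epithelium and 946, 930 and 1009 bp in mesenchyme, a ratio of the largest to the smallest of 1.09. Rps29 and Rpl29 followed with ratios of 1.20 and 1.23. Among the largest ratios were 4.78 at Rpl10a and 4.66 at Rpl36. The median ratio over the 80 members was 1.72, beside 1.63 over all starts, 1.51 over mitochondrial ribosomal protein genes and 1.27 over the 17 other 5′ TOP genes.

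**Figure D4:**
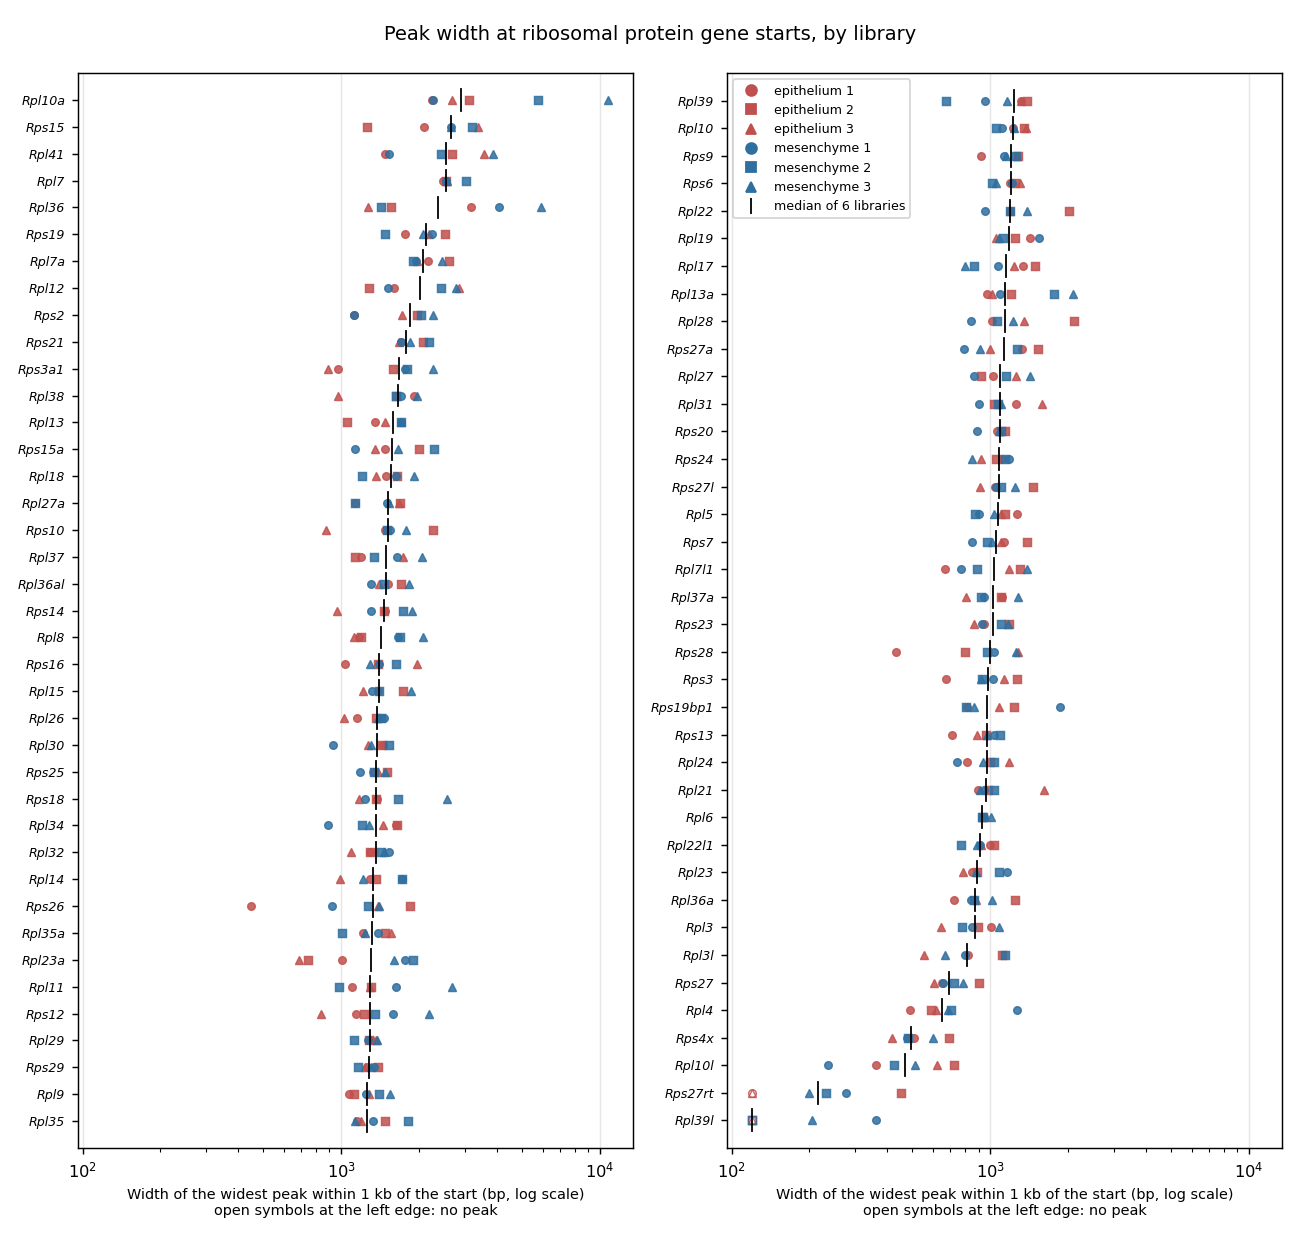
Width in bp (log axis) of the widest peak within 1 kb of the start for 77 of the 82 members, sorted by the median of the 6 libraries (black tick), with epithelium in red and mesenchyme in blue and 1 symbol shape per replicate. Open symbols at the left edge stand for no peak. Medians centre near 1282.25 bp, red and blue symbols intermix at most genes, and mesenchyme 3 holds the widest values at Rpl10a, 10745 bp, and Rpl36, 5927 bp.

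Members named for their part in disease or patterning were detected in all libraries. All 19 Diamond-Blackfan genes had a peak in each, with a median width of 1285.5 bp, beside 1296.75 bp for the other 54 canonical members. Rps19, the gene most often mutated in that disorder, had 1757, 2509 and 2177 bp in epithelium and 2250, 1471 and 2061 bp in mesenchyme. Rpl5 and Rpl11 encode proteins that, with 5S RNA, restrain Mdm2 when ribosome assembly fails. Rpl5 had 1262, 1143 and 1100 bp in epithelium and 903, 876 and 1033 bp in mesenchyme. Rpl11 had 1103, 1304 and 1285 bp in epithelium and 1625, 977 and 2685 bp in mesenchyme. The tissues overlapped at Rps19 and Rpl11 and did not at Rpl5. Rps26 had 448, 1846 and 1380 bp in epithelium and 923, 1267 and 1401 bp in mesenchyme. Rps24 had 1105, 1055 and 918 bp in epithelium and 1177, 1135 and 847 bp in mesenchyme. Rpl38, which is needed in the mouse for patterning of the axial skeleton, had 1901, 1624 and 974 bp in epithelium and 1699, 1620 and 1967 bp in mesenchyme. The widths of the tissues overlapped at these last 3 genes, and epithelium 1 was low at Rps26 and epithelium 3 at Rpl38. The Rps26 peak of 448 bp in epithelium 1 ended 158 bp downstream of the start, and a second peak of 229 bp began 237 bp downstream.

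The comparison of epithelium with mesenchyme asked whether any member had a wider peak in one tissue. No member passed limma's moderated test at an adjusted p of 0.05 in either direction, and percent called was 0 over the 17657 starts tested. At an unadjusted p under 0.05, 4 of 82 members (4.88%) were wider and 4 (4.88%) narrower in epithelium, beside 4.55% and 4.45% of all starts. The median log2 difference, epithelium minus mesenchyme, was -0.04 over members and 0.01 over all starts. It lay within 0.5 of 0 for 69 members, and the 95% interval of the difference lay within 1 on either side of 0 for 64 of 82 members (78.0%), against 67.1% of all starts. The widths did not overlap between tissues at 6 members that were wider in epithelium (7.32%, percent called 6.93) and at 9 that were narrower (11%, percent called 6.82). The share wider in epithelium was near that of all starts, and the share narrower was above it. In either direction it was 18.3% of members beside 13.7% of all starts, a gap that was not tested. The missing calls do not show that the widths were alike: for 18 members the interval allowed a difference of over 1 on the log2 scale.

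**Figure D5:**
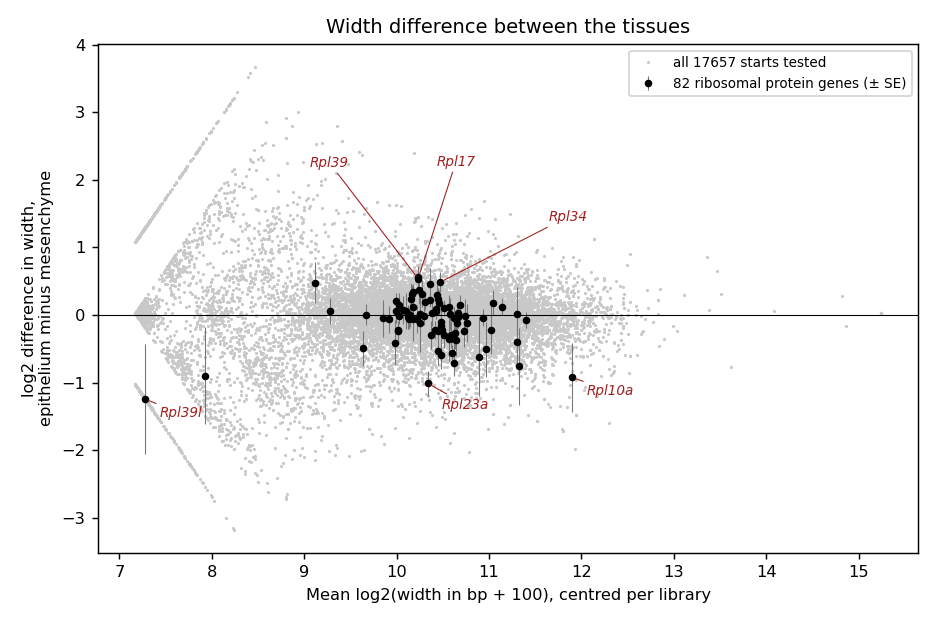
Difference in log2(width + 100 bp), epithelium minus mesenchyme, against the mean of both tissues for 17657 starts (grey) and the 82 members (black, bars are the SE from limma). Members lie between -1.25 and 0.56, and the 3 largest differences in each direction carry their gene names. Grey lines at the left are starts with a peak in few libraries.

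The largest differences toward mesenchyme were at Rpl39l, Rpl23a and Rpl10a. Rpl39l differed by -1.25 ± 0.81 (SE, limma adjusted p = 0.696). With no peak in epithelium this value depends on the pseudocount, and it was -2.55 with 20 bp and -0.41 with 500 bp. Rpl23a, a large subunit protein at the exit of the peptide tunnel, lies at chr11:78180932-78183584 on the minus strand and hosts 3 snoRNAs. It had 1007, 745 and 684 bp in epithelium and 1763, 1899 and 1597 bp in mesenchyme, so every mesenchyme library was above every epithelium library. The difference was -1.01 ± 0.19 (SE, 95% interval -1.46 to -0.56, limma adjusted p = 0.186), and it did not pass the threshold. Both edges moved, with 218 to 282 bp upstream of the start in epithelium against 583 to 691 bp in mesenchyme, and 462 to 756 bp downstream against 985 to 1207 bp. Over 21 other ways of processing the Rpl23a difference lay between -1.19 and -0.77, with adjusted p from 0.159 to 0.419. Rpl10a differed by -0.92 ± 0.50 (SE, limma adjusted p = 0.648), with the high values in the 2 mesenchyme libraries whose peak overlapped other genes. When base pairs covered inside the window replaced width, the Rpl10a difference was 0.01.

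The largest differences toward epithelium were at Rpl17, Rpl39 and Rpl34, all of the large subunit. Rpl17 had 1338, 1490 and 1232 bp in epithelium and 1067, 868 and 796 bp in mesenchyme, a difference of 0.56 ± 0.15 (SE, limma adjusted p = 0.355). The tissues did not overlap at the start of the principal transcript. Taken at the 5′ end of the gene record instead, which lies 1919 bp upstream, the difference was -0.64 ± 0.78 (SE, limma adjusted p = 0.852). That window did not reach the peak over the principal start. It held only peaks of 199 bp in epithelium 2 and 254 and 239 bp in mesenchyme 2 and 3. Rpl39, with the widths given above and no overlap, differed by 0.54 ± 0.19 (SE, limma adjusted p = 0.479). Rpl34 had 1621, 1640 and 1443 bp in epithelium and 888, 1206 and 1274 bp in mesenchyme, without overlap, and differed by 0.49 ± 0.15 (SE, limma adjusted p = 0.425). The downstream edge of the widest peak at Rpl34 lay 1032 to 1110 bp from the start in epithelium and 586 to 941 bp in mesenchyme. In mesenchyme 1, where it ended at 586 bp, a second peak ran from 673 to 1038 bp downstream. When base pairs covered inside the window replaced width, the Rpl34 difference was 0.28. None of the differences at these genes passed the threshold.

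Libraries of the same tissue also differed in width. The lists held 270003, 349322 and 296695 peaks in epithelium and 295141, 341741 and 315468 in mesenchyme. Of the 82 members, 26 had their widest value in epithelium 2, the longest list, and 1 in epithelium 1, the shortest. List length and width did not go together throughout. Mesenchyme 2, the second longest list, held the widest value of 9 members. It held the narrowest value of 15 among the 80 members with a peak in all 6 libraries. Its member median was 1191 bp, below that of the shorter list of mesenchyme 1. A further 25 of the 82 members were widest in mesenchyme 3, where 10 had a peak over 2500 bp, against 1 to 5 elsewhere. These counts were made for members only. The median width over all starts with a peak was also highest in epithelium 2 and mesenchyme 3, at 1290 and 1247 bp, and lowest in epithelium 1, at 1150 bp. In mesenchyme 3, 9 members had several peaks in the window, against 13 to 27 in the other libraries. That was 11.0% of the members with a peak, against 16.25% to 33.3% elsewhere. Over all starts with a peak the share was 27.7% in mesenchyme 3 and 26.4% to 30.0% elsewhere. The part of list length or of peak merging in the member widths was not tested. The reads behind each peak are unknown, so no counting interval can be given. Across the 73 canonical members, Spearman's rho of widths between libraries was 0.464 to 0.763 in the 6 pairs of the same tissue and 0.296 to 0.553 in the 9 pairs across tissues. Over the 15242 starts it was 0.794 to 0.808 and 0.752 to 0.788. These values describe libraries that share genes, starts and base composition.

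The starts of tissue markers were measured in the same way, as a check of the labels. Trp63, the regulator of stratified epithelia, had a peak of 383, 557 and 352 bp at its start in epithelium and none in mesenchyme. All 7 epithelium markers had a peak in each epithelium library and 6 of 7 in each mesenchyme library, with summed widths of 13028 to 18064 bp against 5997 to 8732 bp. Of the 7 mesenchyme markers, 5 to 7 had a peak in epithelium and all 7 in mesenchyme, with summed widths of 8888 to 13922 bp against 10598 to 13690 bp, which overlap. Osr2, a transcription factor of palate mesenchyme, went against its label, with 1082, 2067 and 2081 bp in epithelium and 420, 352 and 753 bp in mesenchyme. Of the 4 blood and vessel markers, 2 or 3 had a peak in each library, with summed widths of 1242 to 2143 bp in epithelium and 2202 to 2746 bp in mesenchyme. The vessel genes Pecam1 and Cdh5 were wider in each mesenchyme library than in any epithelium library. The globin gene Hba-a1 leaned the other way, with 922, 1216 and 1446 bp in epithelium and 929, 487 and 702 bp in mesenchyme. The leukocyte gene Ptprc had no peak in any library. A peak at a start shows open chromatin and not expression, and the part of other cells in the member widths was not tested.

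Motif matches in the promoters were counted as a description of what the members share. Each motif was searched on both strands of the 300 bases around the RefSeq start, in 62 members and in 15138 promoters of all genes. TCGCGA, a palindrome, was found in 14 members (22.6%) and in 3.82% of all promoters. It stands in capitals in the Rpl10a and Rps28 sequences above. CCGGAA, the core of sites for ETS family factors, was found in 30 members (48.4%) beside 21.1%, and the Rps21 sequence holds it 2 times. GGGCGG, the GC box of Sp and Klf factors, was found in 36 members (58.1%) beside 51.6%, and AAGATGGC, a YY1 site, in 5 (8.06%) beside 3.47%. TATAAA, the TATA box, was found in 5 members (8.06%) beside 11.5%, and the E-box CACGTG in 5 (8.06%) beside 8.53%. A 5′ TOP, here a C within 1 base of the start followed by at least 4 pyrimidines on the strand of the gene, was found in 16 members (25.8%) beside 6.57%. This search needs a start that is exact to 1 base. RefSeq and GENCODE starts of these members lay a median of 18.5 bp apart, so a missing match does not show that a 5′ TOP is absent. Matches to the ETS core can share letters with those to the GC box and the YY1 site, and TCGCGA shares none with the ETS core or the GC box.

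Base composition of the members was set beside that of other promoters. The median GC content was 56.8% in members and 58% over all promoters, and the median number of CpG dinucleotides was 21 and 16. Over the 11445 starts with a peak in all 6 libraries the medians were 61.3% and 20. The CpG count of members was thus near that of detected starts. Starts of any gene with no peak in any library had a median GC content of 42% and 2 CpG. Spearman's rho between GC content and the median width was 0.452 over the 62 members and 0.452 over the 11445 starts with a peak in all 6 libraries. The 62 members include Rpl39l and Rps27rt, which lacked a peak in some library, so the sets were not filtered alike. Over all 15138 starts, those without a peak included, it was 0.705. These starts share the same 6 libraries.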

How the data were processed

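The members and gene lists were chosen with earlier results of these data known. Per the labels and the study's methods, reads had been trimmed (Trimmomatic 0.38), aligned to mm10 (Bowtie2) and cleared of duplicates (SAMtools) by the authors, who kept fragments under 100 bp as nucleosome-free and called peaks with MACS2 2.1.1 in each library on its own. The labels also name deepTools 2.0. Which threshold was set for a peak is not given in the sources read. Deposited lists hold a chromosome, a start and an end, and no count, signal or score, so depth is unknown and a missing peak may be a signal below the threshold. Width was taken as end minus start, the smallest listed being 199 bp.

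A start was the first base of the principal transcript in GENCODE M21. The widest peak overlapping 1000 bp either side was measured, 0 bp where none. With Python 3.11.15, R 4.3.3 and limma 3.58.1, log2(width + 100 bp) was centred per library on the median over starts with a peak in all 6 libraries. It was fitted with a mean trend over the 17657 starts with a peak in at least 2 libraries, and p-values were adjusted by Benjamini-Hochberg, with a threshold of 0.05. The pseudocount makes differences of narrow peaks smaller. The code was tested on simulated data. P-values measure the spread between these libraries.

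Members named in the text lacked a peak in some library, had the 5 widest or 5 narrowest medians, the 3 largest differences in either direction, or the 3 smallest or 3 largest ratios between libraries, or were paralogs, Rpl38 or 5 Diamond-Blackfan genes. Rpl35 was named after its values were seen. Some genes are not reported here by name, though counts over sets include them. Epithelium and mesenchyme libraries carry the same replicate numbers. Over the 17657 starts, deviations from the tissue means correlated at 0.0165, -0.0148 and 0.00388 for equal numbers. Nothing in the labels pairs the libraries, so no block was used. The mesenchyme was the tissue left after peeling, so both tissues of a replicate may come from the same embryos. These correlations cannot settle that.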

Additional observations from a re-analysis of the deposited data

How the results depend on the processing

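The count of 80 of 82 members with a peak in all 6 libraries was 77 at the start base, 78 from the 5′ end of the gene record, 79 with only peaks of at least 300 bp, 68 of 70 without members that share a window, 73 of 73 without paralogs and Rps19bp1, and 80 otherwise. The difference between tissues in median width over all members, -29.3 bp, had no stable sign: it was 4.42 without epithelium 1, -75.8 without epithelium 2, -62.2 without mesenchyme 2, 13 without mesenchyme 3 and -4.5 without members that share a window, and lay between -43.7 and -16.6 otherwise. The difference between tissues in the number of members with a peak, -1.33 of 82, was 0 within 250 bp, 0.667 at the start base itself, 0.333 with only peaks of at least 300 bp, -0.333 with lists cut to equal length, and 0 without paralogs and Rps19bp1. No member passed the limma test in any of 21 alternative fits, with the lowest adjusted p of a member between 0.143 and 0.419. Over all starts, the counts wider and narrower in epithelium were 0 and 0, but 4 and 2 within 250 bp, 1 and 2 within 2500 bp, 37 and 24 at the start base, 11 and 3 from the 5′ end of the gene record, 7 and 1 with a pseudocount of 500 bp, 66 and 49 without a filter, and 70 and 57 without a trend. Of the named differences, Rpl10a reversed to 0.0121 with base pairs covered in the window. The value for Rpl17 was -0.64 at the 5′ end of the gene record, in a window that did not reach the peak over its principal start. With the replicate block, 0 members and 0 starts were called in either direction, and nothing in the labels pairs the libraries. Without centring the median of all starts moved by -0.03. The reads behind a peak are unknown, so widths cannot be given a counting error.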
